A study of Mus musculus with 10 samples.

Results

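The genes described here are those that license the origins of DNA replication and build and run the replication fork. They are 40 named genes, found by symbol in the authors' deposited table, and each had 1 row in each of its 4 comparisons, out of 35395 identifiers in all. Per the labels, RNA came from epididymal white fat, a visceral depot, of male C57BL/6 mice in 4 groups. Obese mice received Ad-IGF2 (2 samples), an adenovirus that expresses the growth factor IGF2 from a viral promoter, or its control Ad-GFP (3 samples), injected into the fat 2 times a week for 4 weeks. Mice aged 3 to 4 weeks received IGF2-RNAi (2 samples), a lentivirus with a hairpin against IGF2, or its control NC-RNAi (3 samples) through the tail vein. Each sample is described as sequenced 2 times, and the labels do not say whether animals were pooled.

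The deposited comparisons could not be tied to these groups. Their identifiers are human, 0 of the 35395 are mouse identifiers, and the comparisons carry no names, so they are numbered here by column order. Each sets a numerator set of 2 libraries against a reference set of 2, and a negative log2 fold change means lower in the numerator. The first and second comparisons share a numerator set, called the first numerator set. Another is shared by the third and the fourth, the second numerator set. The first and the third comparisons share the first reference set, and the second and the fourth share the second reference set, so that no comparison stands alone. Nothing below is therefore a statement on IGF2. In the text, log2FC is the deposited log2 fold change, and a value after ± is its deposited standard error. Of 8 genes that mark fat, 2 did not have a row in every comparison (ADIPOQ and LEP), and the 6 others together made up 0.348 to 2.86 reads in 1000000 in any library.

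Replication starts when origins are licensed. The origin recognition complex, with CDC6 and CDT1, loads the MCM2-7 ring, the core of the helicase that unwinds DNA. In S phase CDC45 and the GINS complex switch the ring on, primase and DNA polymerase alpha start the strands, and polymerases delta and epsilon extend them with the sliding clamp PCNA, which the RFC complex loads. Many of these genes are transcribed at the entry into S phase by E2F factors, so that dividing cells hold much of their RNA and resting cells little. In mature fat tissue most fat cells do not divide.

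The authors deposited averages over 4 libraries, but the averages carry enough digits to give back the whole reads of each library. In a base mean every read of a library adds the same amount, and 1 set of whole numbers for the 8 libraries met the base means of the first, the third and the fourth comparisons for each of the 40 genes. The same reads gave the base means of the second comparison to within a relative difference of 4.0e-10. Those base means had not been used to solve the reads, but served to pair the libraries and to check each gene. Over all genes with a row in every comparison, 26746 of 26755 were recovered in this way. The libraries are called a and b within each set, and none of them is tied to a sample of the labels. Recovered reads came to 27407799 and 15704978 in libraries a and b of the first numerator set, 13986776 and 11608775 in the second numerator set, 20132056 and 16167005 in the first reference set, and 15366888 and 15398836 in the second. Levels are given below as CPM, reads per 1000000 recovered reads of the library, and are comparable between libraries of 1 gene but not between genes, since no gene lengths were used.

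1 library stood apart from its partner. Libraries a and b of the first numerator set differed by a root mean square of 0.718 in log2(CPM + 1) over 13470 genes of at least 2 CPM, against 0.276 to 0.346 between the libraries of the other sets. Library a of that set was 0.666 to 0.911 away from each other library, whereas library b was 0.278 to 0.559 away from the reference libraries. The second numerator set was also far from the reference libraries, at 0.889 to 1.05 for library a and 0.754 to 0.91 for library b. Library a of the first numerator set was also the deepest. Of its reads, 2.46% came from mitochondrial genes, within the 1.63% to 2.64% of the other libraries. Whether its depth plays a part in the values below was not tested. Nothing in the labels says whether 2 libraries of a set come from separate cultures or animals, so the deposited p-values measure the spread between these libraries only.

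Replication genes were low in 3 of the 4 numerator libraries. Relative to the mean of the 4 reference libraries, the 40 genes had a median log2 level of -1.51 in library a of the first numerator set and -0.02 in its library b, and of -1.01 and -0.62 in libraries a and b of the second numerator set. In the reference libraries, which make up that mean, the median lay between -0.07 and 0.07, so that small values there are partly built in. The medians of all 13435 genes with reads in every library were between -0.03 and 0.04 in all 8 libraries. In bulk RNA, fewer cells in S phase and less RNA per cell cannot be told apart.

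**Figure D1:**
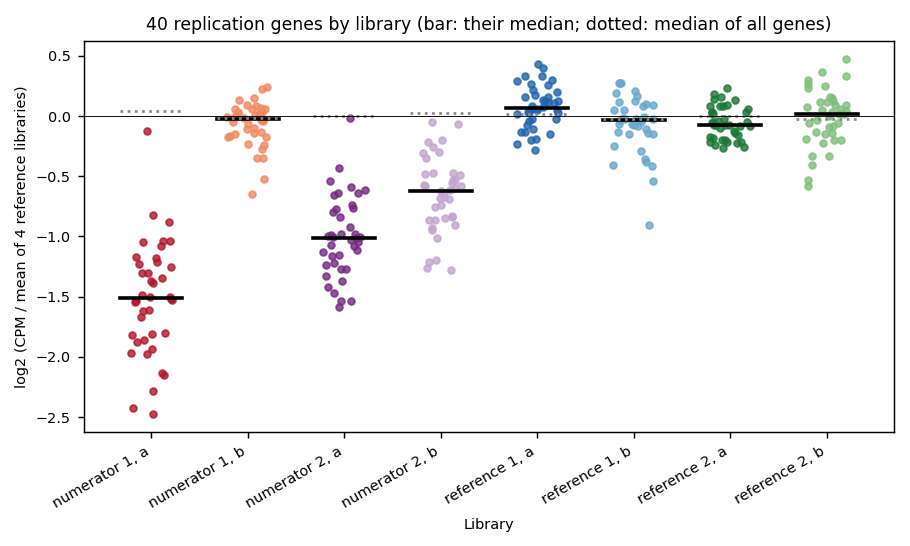
Level of each of the 40 replication genes in each library, as log2 of its CPM over the mean CPM of the 4 reference libraries, with 1 point per gene. Black bars are the medians of the 40 genes and dotted bars those of all genes; library a of the first numerator set lies at -1.51 and library b of the same set at -0.02.

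All 40 genes were lower in library a than in library b of the first numerator set, where 45.8% of all genes were. In 36 of 40 it was the lowest of the 8 libraries, against 19.2% of all genes, and in 40 of 40 it was below every reference library, against 28.9%. Library b of the first numerator set lay within the range of the 4 reference libraries for 31 of 40 genes, against 66.8% of all genes, and below all of them for 8, against 17.4%. Library a of the second numerator set was below all 4 reference libraries for 38 of 40 genes and its library b for 34 of 40, against 33.5% and 29.1% of all genes. Within the second numerator set, library a was the lower one in 39 of 40 genes, against 52% of all genes, with a median difference of -0.34 on the log2 scale. RFC1 was the exception.

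**Figure D2:**
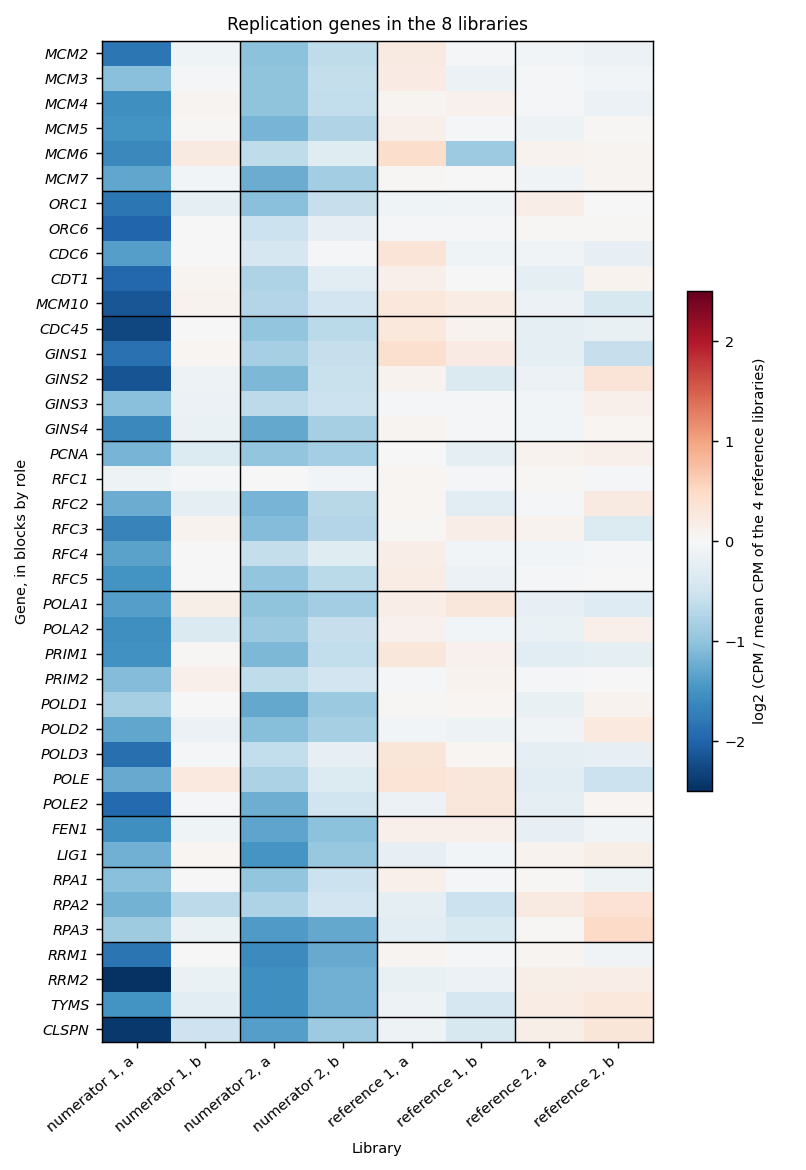
Log2 of the CPM of each gene over the mean CPM of the 4 reference libraries, by library (columns) and gene (rows, in blocks by role). The column of library a of the first numerator set is the darkest blue, with a median of -1.51, and the row of RFC1 is pale throughout.

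In the first and second comparisons, which average libraries a and b of the first numerator set, none of the 40 genes passed an adjusted p under 0.05. Of all genes the authors tested, 0.0516% were called in the first comparison and 0.82% in the second. Those called lower made up 0.0258% and 0.262%, and 0.045% and 0.255% of genes with a base mean of 100 to 10000. Under the labels' own selection, a log2FC below -1 with an unadjusted p under 0.05, 0 of the 40 were picked in the first comparison and 2 in the second, against 0.121% and 0.94% of all genes. The log2FC was negative for 40 of 40 genes in the first and 39 of 40 in the second comparison by the authors' deposited table; the medians were -0.65 and -0.55, against 0.01 and 0.02 over all genes tested. An unadjusted p under 0.05 was reached by 0 of the 40 genes in the first comparison, against 2.79% of all genes tested and 2.51% of those in that base mean range. In the second it was reached by 4 of the 40, against 9.25% and 9.98%, so that the count is that of genes at large. The 4 were PCNA, RPA2, TYMS and CLSPN, and the smallest adjusted p, that of RPA2, was 0.0642 by the authors' deposited table. The standard errors of the 40 genes had a median of 0.46 in both comparisons, against 0.19 and 0.21 in the third and the fourth comparisons by the authors' deposited table.

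The average of the first numerator set stood for neither of its libraries. From library a alone the median log2 ratio of the 40 genes to the first reference set was -1.68, with values from -2.58 for CDC45 to -0.26 for RFC1. From library b alone it was -0.06, with values from -0.36 for POLA2 to 0.33 for MCM6, and 30 of 40 genes were below 0. Against the second reference set the medians were -1.58 from library a and 0.04 from library b. The corresponding values of the third comparison were -1.27 from library a and -0.87 from library b of the second numerator set, and those of the fourth were -1.18 and -0.78. These are values of single numerator libraries, with no test.

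**Figure D3:**
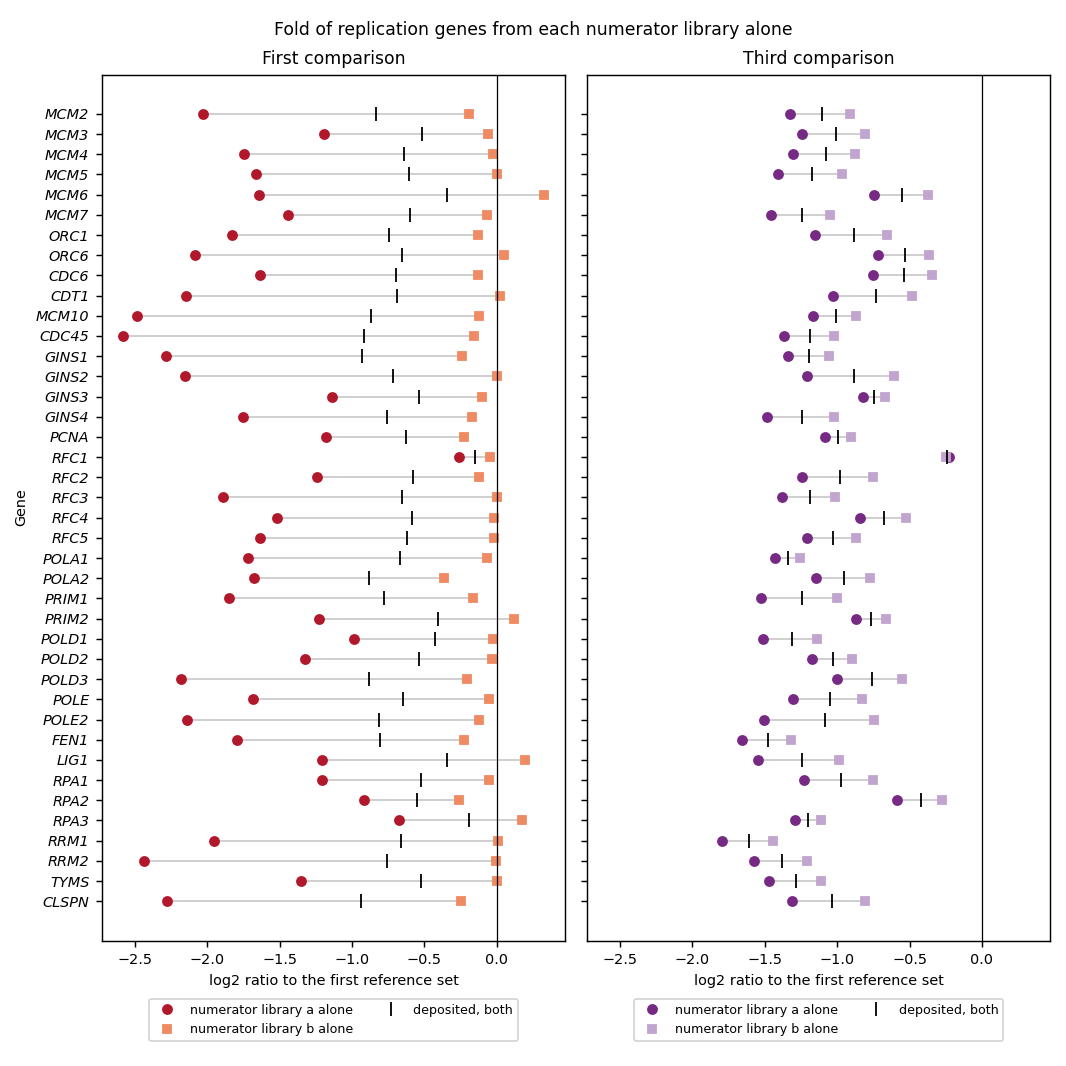
Log2 ratio of each gene to the first reference set, from numerator library a alone (circles), from library b alone (squares) and as deposited for both (ticks), in the first and the third comparisons. In the first comparison the medians of circles and squares are -1.68 and -0.06, and in the third -1.27 and -0.87.

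In the third comparison 37 of the 40 genes fell in the second numerator set at an adjusted p under 0.05, and none rose. Of all genes tested, 30.9% were called there in either direction, 16.1% lower and 14.8% higher. Among genes with a base mean of 100 to 10000, the range in which all 40 genes lay, 31.3% were called lower. In the fourth comparison 35 of 40 fell and none rose, where 34.7% of all genes tested were called, 17.5% were called lower and 17.2% higher, and 31.8% were lower in that range of base means. The median log2FC were -1.04 and -0.95 by the authors' deposited table, against 0.09 and 0.08 for all genes tested and -0.21 and -0.20 for genes in that range. Both numerator libraries were below both reference libraries for 36 of 40 genes in the third comparison and 35 of 40 in the fourth, as were 36.5% and 35.9% of all genes. In the first and second they were so for 21 and 14 of 40, against 15.5% and 22.6%. The labels' selection picked 24 of 40 and 18 of 40 as lower, against 3.79% and 5.99% of all genes. Since both comparisons use the second numerator set, they are no separate evidence of its low levels.

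**Figure D4:**
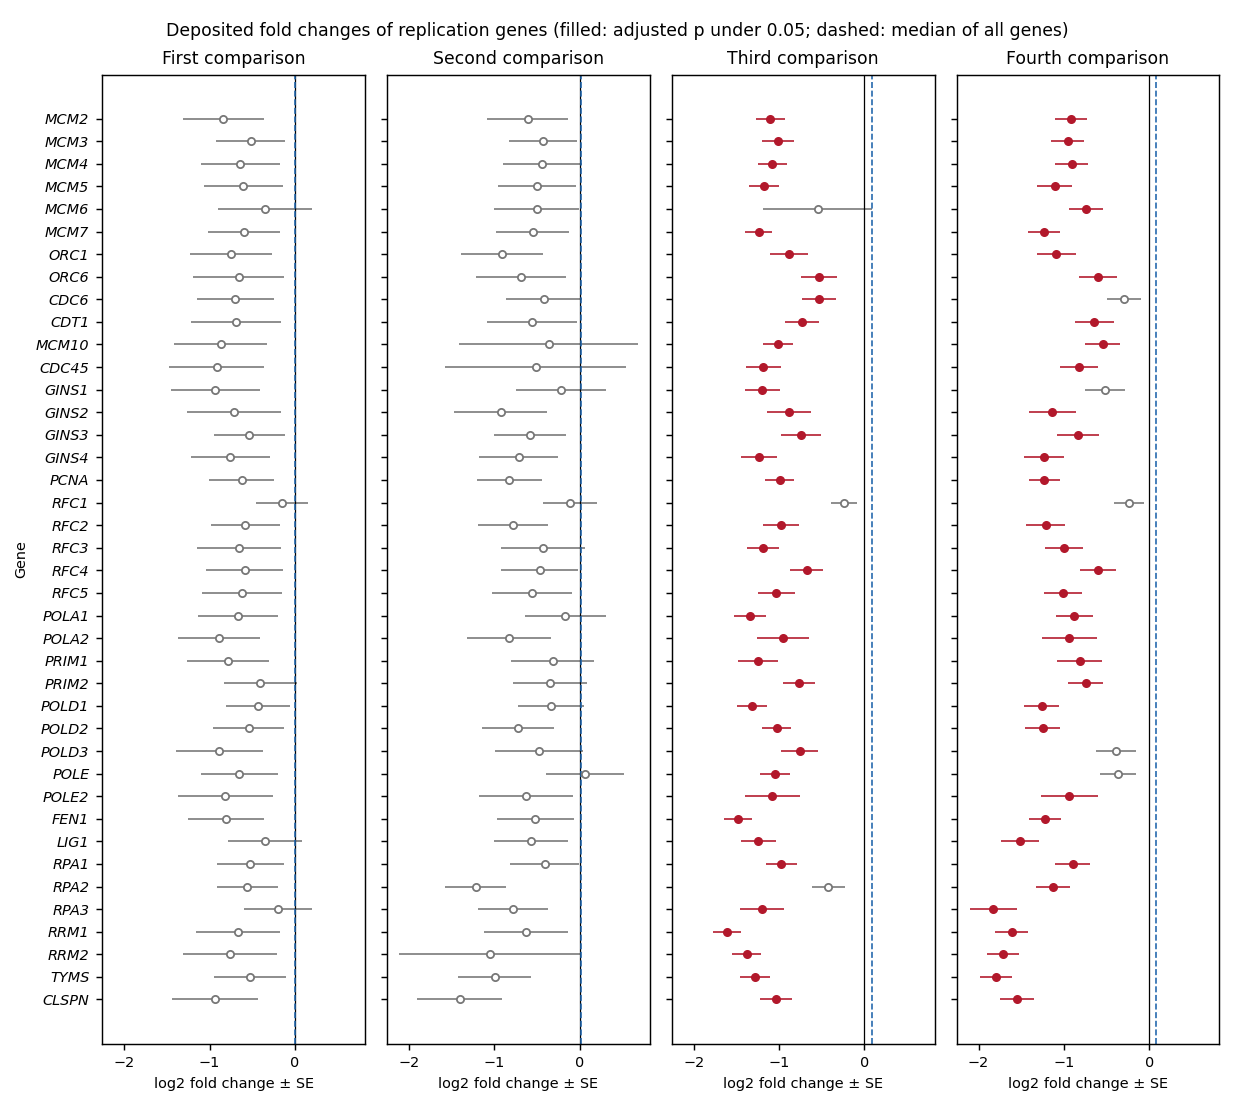
Log2FC with its standard error for the 40 genes in each deposited comparison, with filled points for an adjusted p under 0.05 and a dashed line at the median of all genes. No point is filled in the first and second comparisons, 37 are in the third and 35 in the fourth.

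Among the 6 subunits of the MCM2-7 helicase, 5 fell in the third comparison and 6 in the fourth. MCM7 (ENSG00000166508), a subunit of the ring, had 174 and 411 CPM in libraries a and b of the first numerator set, 182 and 235 in the second numerator set, 439 and 427 in the first reference set and 400.5 and 447 in the second. Library a of the first numerator set and both libraries of the second were thus below every other library. MCM7 fell in the third and the fourth comparisons, with log2FC of -1.24 ± 0.16 and -1.23 ± 0.19 by the authors' deposited table (adjusted p 1.14e-12 and 2.21e-09). MCM2, MCM3, MCM4 and MCM5 had log2FC between -1.17 and -1.01 in the third comparison and between -1.11 and -0.91 in the fourth by the authors' deposited table.

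MCM6 (ENSG00000076003) was the subunit that was not called in the third comparison. It had 28.7 and 103 CPM in the first numerator set, 56.6 and 71.7 in the second, 119 and 46.9 in the first reference set and 93.3 and 92.9 in the second. Library b of the first reference set was lower than its partner by 1.34 on the log2 scale, the widest gap of any of the 40 genes in a reference set, and it lay below both libraries of the second numerator set. The log2FC of MCM6 was -0.55 ± 0.64 in the third comparison (adjusted p 0.577) and -0.75 ± 0.20 in the fourth (adjusted p 0.00106) by the authors' deposited table. Without library b of the first reference set its log2 ratio in the third comparison was -1.06, and without library a it was 0.24, so that 1 library decided its direction.

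The 5 genes that load the helicase or help it start had the smallest medians of the roles, -0.73 in the third comparison and -0.60 in the fourth by the authors' deposited table. All 5 fell in the third comparison and 4 in the fourth. MCM10 (ENSG00000065328), which helps turn the loaded ring into a working fork, had 19.5 and 91.1 CPM in the first numerator set, 51.3 and 61.7 in the second, 102 and 97.7 in the first reference set and 77.9 and 64.8 in the second. Its level in library a of the first numerator set was the lowest of all, and the first reference set was above the second. MCM10 fell with log2FC of -1.01 ± 0.17 in the third comparison and -0.54 ± 0.20 in the fourth by the authors' deposited table (adjusted p 1.14e-07 and 0.026), and the second of these calls was lost when folds were centred on the median gene. ORC6 (ENSG00000091651), the smallest subunit of the origin recognition complex, had 10.4 and 41.7 CPM in the first numerator set, 28.3 and 35.5 in the second, 40.5 and 40.6 in the first reference set and 41.8 and 41.8 in the second. Its 5 libraries other than the low 3 lay within 40.5 to 41.8 CPM. Its fall was small, -0.53 ± 0.21 and -0.60 ± 0.22 by the authors' deposited table (adjusted p 0.0353 and 0.0243), and neither call held when folds were centred on the median gene.

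CDC6 (ENSG00000094804), which joins the origin recognition complex to receive the MCM ring, had 33.5 and 86.5 CPM in the first numerator set, 64.99 and 84.6 in the second, 109.9 and 81.2 in the first reference set and 82.5 and 76.4 in the second. Library b of the second numerator set lay among the reference libraries. CDC6 fell in the third comparison by 0.54 ± 0.20 on the log2 scale (adjusted p 0.0263), a call lost when folds were centred on the median gene, and had -0.29 ± 0.20 in the fourth (adjusted p 0.274) by the authors' deposited table. ORC1, the subunit that binds CDC6 at the origin, and CDT1, which brings in the MCM ring, fell in both comparisons, with log2FC of -0.88 ± 0.22 and -0.73 ± 0.20 in the third comparison by the authors' deposited table. The call of CDT1 in the fourth was lost on the same centring.

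CDC45 and the 4 GINS subunits, which bind the MCM ring to form the active helicase, all fell in the third comparison, and 4 of 5 did in the fourth. GINS4 (ENSG00000147536) had 17.9 and 48.8 CPM in the first numerator set, 22.7 and 30.7 in the second, 57.1 and 53.5 in the first reference set and 51.99 and 56.4 in the second. Every library of the second numerator set was below every reference library. Its log2FC were -1.24 ± 0.21 and -1.23 ± 0.23 by the authors' deposited table (adjusted p 7.78e-08 and 1.03e-06). GINS3 (ENSG00000181938) had 12.3 and 22.99 CPM in the first numerator set, 16.2 and 17.6 in the second, 24.98 and 24.7 in the first reference set and 24.2 and 27.7 in the second. It showed the smallest fall of the group in the third comparison, -0.75 ± 0.23, and -0.83 ± 0.25 in the fourth by the authors' deposited table, and its call in the third was lost when values were scaled to the library totals. CDC45 held the lowest ratio of library a of the first numerator set to the first reference set, at 9.96 and 48.6 CPM in libraries a and b of that numerator set and 58.1 and 51.5 in the first reference set.

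GINS1 (ENSG00000101003) was called in the third comparison, at -1.20 ± 0.20 (adjusted p 6.37e-08), and not in the fourth, at -0.52 ± 0.24 (adjusted p 0.079), by the authors' deposited table. It had 11.7 and 44 CPM in the first numerator set, 23.7 and 28.3 in the second, 55.7 and 48.99 in the first reference set and 36.4 and 28.2 in the second. Library b of the second reference set held about the level of library b of the second numerator set, so the groups overlapped in the fourth comparison.

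The sliding clamp PCNA and 4 of the 5 RFC subunits fell in both comparisons. PCNA, which holds polymerases on DNA, had log2FC of -0.99 ± 0.17 and -1.23 ± 0.18 by the authors' deposited table. RFC3 (ENSG00000133119), a small subunit of the clamp loader, had 24.5 and 83.1 CPM in the first numerator set, 36.9 and 46.6 in the second, 79.5 and 87.2 in the first reference set and 82.8 and 61.7 in the second. It fell with log2FC of -1.19 ± 0.19 and -0.997 ± 0.22 by the authors' deposited table (adjusted p 1.01e-08 and 6.21e-05), while RFC2, RFC4 and RFC5, its fellow small subunits, had -0.98 ± 0.21, -0.68 ± 0.20 and -1.03 ± 0.22 in the third comparison. The call of RFC4 in the fourth was lost when folds were centred on the median gene.

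RFC1 (ENSG00000035928), the large subunit of the same loader, was not called in either comparison. It had 99.1 and 105 CPM in the first numerator set, 107 and 103 in the second, 112 and 106 in the first reference set and 111 and 104 in the second. All 8 libraries lay between 99.1 and 112 CPM, and those of the numerator sets overlapped those of the reference sets in the third and the fourth comparisons. Its log2FC were -0.24 ± 0.15 and -0.24 ± 0.18 in the third and the fourth comparisons by the authors' deposited table (adjusted p 0.244 and 0.304). It was also the gene with the smallest gap between libraries a and b of the first numerator set, -0.08 on the log2 scale, where the median of the 40 genes was -1.49. Whether RFC1 differs from the other RFC genes was not tested.

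All 9 genes of polymerases alpha, delta and epsilon and of primase fell in the third comparison, and 7 fell in the fourth. POLA1 (ENSG00000101868), the catalytic subunit of polymerase alpha, had 19.5 and 55.97 CPM in the first numerator set, 25.2 and 27.7 in the second, 56.5 and 61.2 in the first reference set and 44.1 and 40.2 in the second. The first reference set was above the second without overlap. POLA1 fell with log2FC of -1.34 ± 0.19 and -0.88 ± 0.22 by the authors' deposited table (adjusted p 1.2e-10 and 0.000335). POLD1, the catalytic subunit of polymerase delta, had -1.31 ± 0.18 and -1.26 ± 0.21, and the primase subunit PRIM1 had -1.24 ± 0.24 and -0.82 ± 0.26 by the authors' deposited table. In the fourth comparison centring on the median gene ended the call of POLE2, and scaling to the library totals ended those of POLE2, POLA2 and PRIM1.

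POLD3 and POLE were the polymerase genes that were not called in the fourth comparison. POLD3 (ENSG00000077514), an accessory subunit of polymerase delta, had 10.4 and 37.4 CPM in the first numerator set, 25.02 and 33.4 in the second, 47.2 and 39.8 in the first reference set and 32.9 and 33.4 in the second. POLE (ENSG00000177084), the catalytic subunit of polymerase epsilon, had 60.4 and 171 CPM in the first numerator set, 82.9 and 113 in the second, 182 and 174 in the first reference set and 119.8 and 99.6 in the second. For both genes library b of the second numerator set lay within or above the second reference set. Their log2FC in the fourth comparison were -0.39 ± 0.24 and -0.37 ± 0.21 (adjusted p 0.201 and 0.166), against -0.76 ± 0.22 and -1.05 ± 0.18 in the third (adjusted p 0.00282 and 9.75e-08), all by the authors' deposited table. POLE was the gene with a positive value in the second comparison, 0.07 ± 0.46 by the authors' deposited table (adjusted p 0.987).

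FEN1 and LIG1, which trim and seal the pieces of the lagging strand, fell in both comparisons. FEN1 (ENSG00000168496) had 87.1 and 236 CPM in the first numerator set, 101 and 125 in the second, 278 and 277 in the first reference set and 221 and 238 in the second, and log2FC of -1.48 ± 0.16 and -1.23 ± 0.19 by the authors' deposited table (adjusted p 3.78e-18 and 1.4e-09). LIG1 (ENSG00000105486) had 39.4 and 94.7 CPM in the first numerator set, 32.8 and 47.3 in the second, 79.5 and 87.2 in the first reference set and 96.5 and 101 in the second. Its log2FC were -1.24 ± 0.21 and -1.51 ± 0.22 by the authors' deposited table (adjusted p 4.11e-08 and 2.05e-10). LIG1 was lowest in library a of the second numerator set, as were POLD1, RPA3 and TYMS.

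Of the 3 subunits of RPA, the complex that coats single-stranded DNA, 2 fell in the third comparison and 3 in the fourth. RPA3 (ENSG00000106399) had 13.9 and 22.8 CPM in the first numerator set, 9.58 and 10.6 in the second, 21.1 and 19.7 in the first reference set and 26.1 and 35.7 in the second, and both libraries of the second numerator set were below all others. It fell with log2FC of -1.20 ± 0.26 and -1.83 ± 0.27 by the authors' deposited table (adjusted p 4.78e-05 and 6.44e-10). RPA2 (ENSG00000117748) had 38.97 and 56.2 CPM in the first numerator set, 51.9 and 63.1 in the second, 75.1 and 60.5 in the first reference set and 104 and 113 in the second. The second reference set was far above the first, and library b of the first lay below library b of the second numerator set. RPA2 was not called in the third comparison, at -0.42 ± 0.19 (adjusted p 0.0778), and fell in the fourth, at -1.13 ± 0.20 (adjusted p 1.85e-07), by the authors' deposited table. RPA1, the large subunit, had -0.97 ± 0.18 and -0.90 ± 0.20 by the authors' deposited table.

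The genes of nucleotide supply had the largest group medians, -1.38 in the third comparison and -1.71 in the fourth by the authors' deposited table, and all 3 fell in both. RRM1 (ENSG00000167325), the large subunit of ribonucleotide reductase, which makes deoxynucleotides, had 58.5 and 207 CPM in the first numerator set, 68.8 and 86.1 in the second, 216 and 199.5 in the first reference set and 216 and 195 in the second. The 3 low libraries lay between 58.5 and 86.1 CPM and the 5 others between 195 and 216 CPM. RRM1 fell, with log2FC of -1.61 ± 0.17 and -1.61 ± 0.19 by the authors' deposited table (adjusted p 7.28e-20 and 7.49e-16). RRM2, the small subunit of the same enzyme, showed the widest gap within the first numerator set of the 40 genes, 35.9 and 177 CPM in libraries a and b, a difference of -2.30 on the log2 scale. TYMS (ENSG00000176890), which makes thymidylate, had 72.9 and 171 CPM in the first numerator set, 71 and 89.2 in the second, 189 and 155 in the first reference set and 234 and 247 in the second, and fell with log2FC of -1.29 ± 0.18 and -1.80 ± 0.19 by the authors' deposited table (adjusted p 1.51e-11 and 1.64e-19).

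CLSPN (ENSG00000092853), claspin, which passes the signal of a stalled fork to the checkpoint kinase CHK1, had 39.4 and 147 CPM in the first numerator set, 81.6 and 113 in the second, 193 and 159 in the first reference set and 234 and 259 in the second. Unlike most of the 40 genes, it was below every reference library in both libraries of the first numerator set. CLSPN fell in the third and the fourth comparisons with log2FC of -1.04 ± 0.19 and -1.55 ± 0.20 (adjusted p 5.32e-07 and 1.13e-12), and had -0.94 ± 0.50 in the first and -1.41 ± 0.50 in the second (adjusted p 1 and 0.203), by the authors' deposited table.

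**Figure D5:**
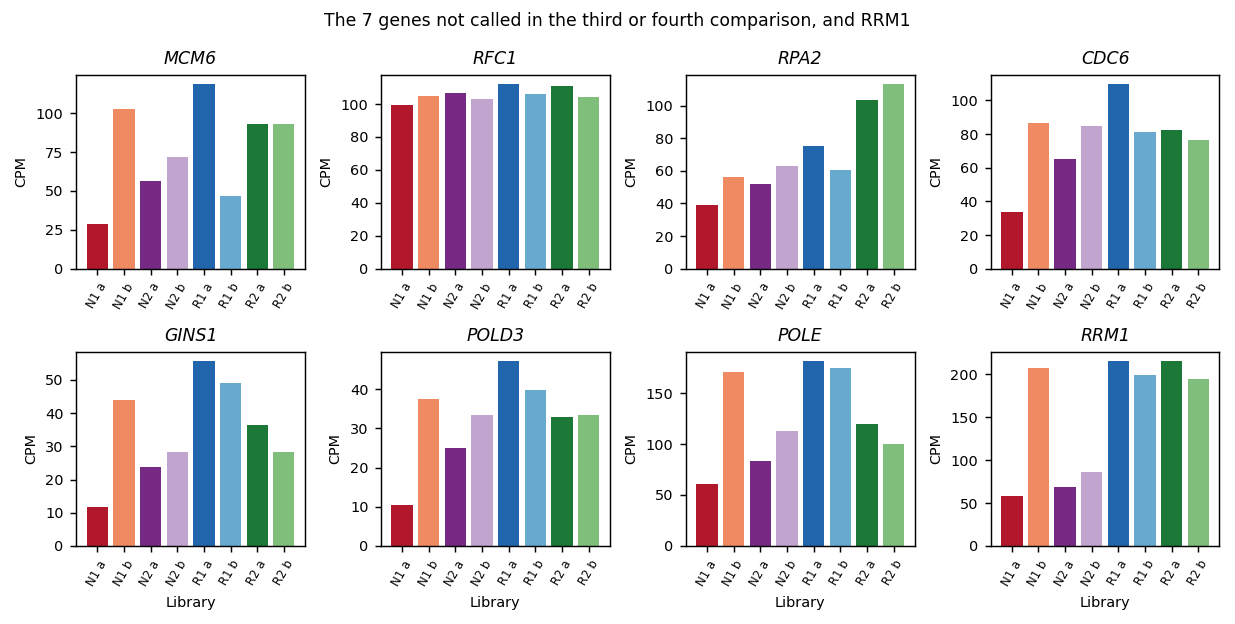
CPM in each library (N1 and N2, first and second numerator set; R1 and R2, first and second reference set) of the 7 genes that were not called in the third or the fourth comparison, and of RRM1. MCM6 is low in library b of the first reference set (46.9 CPM, against 119 in library a), and RFC1 lies between 99.1 and 112 CPM throughout.

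The reference sets themselves differed in part of these genes. Both libraries of the second reference set were above both of the first for 9 of 40 genes and below them for 10, where 27.9% and 28.5% of all genes were. The 9 were ORC1, ORC6, PCNA, LIG1, RPA2, RPA3, RRM2, TYMS and CLSPN, and the 10 were MCM2, MCM4, MCM10, CDC45, GINS1, POLA1, PRIM1, POLD3, POLE and FEN1. The mean CPM of the second set over the first ran from -0.70 for POLE to 0.68 for RPA2 on the log2 scale. The shares are near those of all genes, and the differences were not tested gene by gene.

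Genes of the same pathway outside the 40 were also called lower in the second numerator set. Their counts stand against 16.1% of all genes tested called lower in the third comparison and 17.5% in the fourth, or 31.3% and 31.8% of those with a base mean of 100 to 10000. Of 15 other licensing and firing factors, 13 fell in the third comparison and 10 in the fourth, and none rose. CDC7, the kinase that fires licensed origins, had log2FC of -1.20 ± 0.24 and -0.98 ± 0.25, and its partner DBF4 had -0.97 ± 0.25 and -1.22 ± 0.22 by the authors' deposited table. ORC4, another origin recognition subunit, had 0.21 ± 0.19 and 0.15 ± 0.21 (adjusted p 0.445 and 0.633) by the authors' deposited table. Of 18 other fork and chromatin assembly factors, 13 and 12 fell and none rose, among them TIMELESS, a fork protection factor, at -1.59 ± 0.20 and -1.39 ± 0.22 by the authors' deposited table.

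Of 15 other enzymes of nucleotide supply, the third comparison had 12 lower and 1 higher, and the fourth 10 lower and none higher, where 14.8% and 17.2% of all genes tested were called higher and 16.1% and 17.5% lower. TK1, which salvages thymidine, had log2FC of -1.28 ± 0.19 and -2.01 ± 0.22 by the authors' deposited table. The gene that rose was RRM2B, the p53-induced small subunit of ribonucleotide reductase used outside S phase, at 0.91 ± 0.17 (adjusted p 2.08e-06), with 0.25 ± 0.21 in the fourth comparison (adjusted p 0.378) by the authors' deposited table. RRM2B had 161 and 70.7 CPM in the first numerator set, 161 and 125 in the second, 70.3 and 63.8 in the first reference set and 122 and 86.6 in the second, and its 3 highest libraries were those in which RRM1 was lowest.

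Of 22 regulators of S phase entry, the third comparison had 13 lower and 1 higher, and the fourth 12 lower and none higher, against the same shares of all genes. CCNA2, cyclin A, had 39.7 and 191 CPM in the first numerator set, 59.2 and 66.1 in the second, 135 and 189 in the first reference set and 196 and 165 in the second. E2F8, an E2F factor that represses transcription, had log2FC of -1.83 ± 0.37 and -1.85 ± 0.38 by the authors' deposited table. The gene that rose was CDKN1A, an inhibitor of cyclin-dependent kinases, at 0.59 ± 0.16 in the third comparison (adjusted p 0.00191), with -0.20 ± 0.18 in the fourth (adjusted p 0.428) by the authors' deposited table. It had 764 and 262 CPM in the first numerator set, 589.6 and 486 in the second, 356 and 271 in the first reference set and 484 and 584 in the second. CDKN1B, another such inhibitor on the list, fell in the third and the fourth comparisons. Its log2FC were -1.58 ± 0.22 and -1.30 ± 0.24 by the authors' deposited table (adjusted p 4.96e-11 and 1.23e-06). In the first and second comparisons none of the genes of these 4 lists was called.

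Markers of cell division were low in the same 3 numerator libraries, but did not follow the replication genes throughout. The 4 markers MKI67, TOP2A, CCNB1 and PLK1 summed to 521 and 2276 CPM in the first numerator set, 416 and 488 in the second, 1379 and 1821 in the first reference set, and 1781 and 1616 in the second, and all 4 fell in the third and the fourth comparisons. Relative to the mean of the reference libraries their median log2 level was -1.64 and 0.32 in libraries a and b of the first numerator set, -1.98 and -1.75 in the second, and -0.53 in library a of the first reference set. The 40 genes had -1.51 and -0.02, -1.01 and -0.62, and 0.07 in those libraries. In the first comparison the median log2FC of the markers was -0.06, against -0.65 for the 40 genes, by the authors' deposited table. HSPA6, a stress-induced heat shock gene named here after its values had been seen, had 0.693 and 0.828 CPM in the first numerator set, 2259 and 1622 in the second, 2.48 and 0.68 in the first reference set and 0.911 and 1.88 in the second. Library a of the first numerator set had low replication genes and low HSPA6, and the second numerator set had low replication genes and high HSPA6. Whether HSPA6 and the replication genes are linked was not tested.

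Markers of other cell types summed to no more than 50.1 CPM per list, except in the epithelial list through KRT8 and KRT18. KRT8, KRT18, EPCAM and CDH1 summed to 689 and 613 CPM in the first numerator set, 386 and 431 in the second, 695 and 549 in the first reference set, and 790 and 932 in the second, with EPCAM and CDH1 averaging under 1 CPM. KRT8 and KRT18 fell in the third and the fourth comparisons. EPCAM and CDH1 had negative log2FC in the third and positive log2FC in the fourth, and neither was called. Of the 5 fibroblast and progenitor markers, 3 had a row in all comparisons (not DCN or LUM). They summed to 50.1 and 24.1 CPM, 14.4 and 17.4 CPM, 33.8 and 23.5 CPM, and 26.7 and 21.6 CPM in the same order of sets. COL1A1 fell in the third and the fourth comparisons. COL3A1, PDGFRA and DCN had positive log2FC in both, as did LUM in the fourth, and none of these was called. The 6 macrophage markers summed to between 4.64 and 11.1 CPM. CSF1R was the highest of them in every library, at 4.14 to 7.34 CPM. In library a of the second numerator set it held 4.65 of 11.1 CPM. CD14 and MRC1, at 3.29 and 1.81 CPM and at 1.14 and 1.21 CPM in the second numerator set and under 1 CPM in every other library, were called higher in the third comparison (adjusted p 0.000329 and 0.00202) and the fourth (adjusted p 0.00768 and 0.0238) by the authors' deposited table. In library a of the first numerator set, where the replication genes had their lowest median, CD14 and MRC1 had 0.292 and 0.109 CPM. Of the other macrophage markers, CD68 and LYZ had positive and CSF1R and PTPRC negative log2FC in both comparisons, and none was called. Of 4 T and NK cell markers, the 3 with rows in all comparisons summed to 20.5 and 21.02 CPM in the second numerator set and to between 0.584 and 1.61 CPM elsewhere. IL2RB alone made up 18.8 and 19.8 of these CPM and was called higher in both comparisons, while CD3D lay near 1 CPM there. Of 4 endothelial markers, the 3 with such rows summed to 8.98 CPM in library a of the first numerator set and to between 1.299 and 4.22 CPM in the others, and PECAM1 made up 6.68 CPM of that highest value. VWF was called higher in the third comparison, and the fat marker PLIN1 in the fourth, each at no more than 1.14 CPM. Of the other endothelial markers, PECAM1 had negative and KDR positive log2FC in both, CDH5 was negative in the third, and none was called. Of the other fat markers, FABP4 and PPARG had negative log2FC in the fourth and the rest positive, and none was called. The part of these markers in the levels of the replication genes was not tested.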

How the data were processed

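Per the labels, RNA was sequenced by a commercial service; neither the aligner nor the build is given in the sources used here. The authors deposited a single table of 4 unnamed comparisons. Per the file headers, it gives a base mean, a normalised read count averaged over libraries. Its log2 fold changes, their standard errors and test statistics (each a score) and its p-values are the authors' deposited values. Of its 24 columns of values, 0 carry the name of any of the 10 samples, so the count tests planned by group were not run and no test was made here; calls are the deposited adjusted p under 0.05.

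Whole reads per library were solved from the base means by lattice reduction (a step chosen after the table had been seen; Python 3.11.15, numpy 2.4.6), with a relative tolerance of 1e-13 in 3 comparisons and 3e-09 in the second, which served as a check. The steps came from the lowest rows, and 1 of 16 pairings of libraries between comparisons met the check in 165 of 165 genes, the next best in 1. The method was tested on simulated data. Of all genes, 9, with 4.57% of the base means of the first comparison, were not recovered and are outside the CPM. For the replication genes described here, recovered means gave the deposited fold changes to within 0.0114 on the log2 scale.

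Genes given in full were, per role, those with the largest and smallest fold change in the third comparison and those not called there; CDC6, GINS1 and POLE were added after the values had been seen. The members, the 4 pathway lists and the 7 marker lists were chosen with earlier results of these data known. Alternatives changed the threshold, the adjustment and the scaling, and left out each library.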

Additional observations from a re-analysis of the deposited data

How the results depend on the processing

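No paired analysis was possible because no column carries a sample or replicate number of the labels. Replication genes called lower numbered 34 to 37 in the third comparison and 28 to 35 in the fourth over the other thresholds, adjustments and scalings, and 0 in the first and second. The selection stated in the labels was a log2 fold change over 1 in size with an unadjusted p under 0.05. Under it 24 were called in the third comparison, 18 in the fourth and 2 in the second, all lower. Of all genes, 3.79%, 5.99% and 0.94% were picked as lower in these comparisons. These thresholds differ from the main one by construction. None of the 40 was called higher under any of them. Among genes with 2 CPM or more the median log2FC was -0.16 and -0.15 in the third and the fourth comparisons, and centring on it left 35 and 30 genes called. Leaving out 1 library gave medians from -1.68 to -0.06 in the first comparison, -1.58 to 0.04 in the second, -1.27 to -0.87 in the third and -1.18 to -0.78 in the fourth. In the first and second comparisons library a of the first numerator set decided the median: without it, the values were -0.06 and 0.04. Among the genes given in full, centring ended the calls of ORC6 and CDC6 in the third and of ORC6 and MCM10 in the fourth comparison, and scaling to the totals also that of GINS3 in the third. Each of the 40 genes had at least 98 reads in every library.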
